A study of Xenopus laevis with 18 samples.

Results

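The genes described here encode splicing factors and heterogeneous nuclear ribonucleoproteins (hnRNPs), the proteins that bind newly made RNA and carry out or steer the removal of introns. They were chosen by name: a probe set of the array belonged to the group when its single gene symbol began with snrp, SF3A or SF3B, srsf, hnrnp, prpf, u2af, lsm, ptbp, rbfox, celf, or esrp1 or esrp2. The rule gave 158 probe sets for 95 genes, out of 32475 probe sets tested, with the L and S copies of a gene (the homeologs of the duplicated Xenopus laevis genome) counted as separate genes. For 40 of the 95 genes the array carried more than 1 probe set, and 22 pairs of homeologs were measured.

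The spliceosome assembles on each intron from small nuclear ribonucleoproteins (snRNPs), each made of an RNA, a ring of Sm or LSm proteins and proteins of its own, with U2AF marking the end of the intron and the Prp proteins acting in later steps. SR proteins mostly favour the use of the exons they bind, and hnRNPs, among them the polypyrimidine tract binding (PTB) proteins, often repress them. RBFOX, CELF and ESRP proteins act on top of this machinery in particular tissues, RBFOX and CELF proteins being best known from muscle and nervous tissue and ESRP proteins from epithelia. The symbol rule also took in proteins with other roles: Lsm1 belongs to a cytoplasmic ring that acts in mRNA decay, and Lsm14a and Lsm14b bind translationally repressed mRNA.

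RNA came from lateral marginal zone (LMZ) explants of Xenopus laevis embryos, the side part of the ring around the embryo that forms mostly mesoderm, and was read on Affymetrix arrays. All embryos received GFP mRNA at the 4-cell stage. The arm labelled control had GFP mRNA alone, and the arm labelled RA-depleted had GFP mRNA mixed with mRNA for cyp26, which degrades retinoic acid (RA). The tissue was dissected as gastrulation began and kept in culture for 1 h at 20 °C for the early gastrula samples, for 3 h at 20 °C for the mid-gastrula samples, or through the night at 14 °C for the early neurula samples. There were 3 arrays in every one of 6 groups, which the labels call biological replicates, so 18 arrays in all, each made from 6 µg of total RNA.

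A few facts of the whole series bear on the values below. Values are log2 probe set intensities. Early gastrula arrays had medians of 5.85 to 5.91, those of mid-gastrula 5.47 to 5.51 and those of early neurula 5.48 to 5.51. The brighter of 2 probe sets of cyp26a1.S was higher in the arm labelled control. In the order of the stages its means were 13.79, 13.76 and 13.26 in control and 9.0, 8.42 and 9.12 in RA-depleted explants. The other was higher in the RA-depleted arm by 0.72, 1.39 and 1.38, and cyp26a1.L by 1.82, 1.99 and 1.53, without being called. Which of these probe sets can read the injected cyp26 mRNA is not known here, so they do not settle whether the labels are right. The arms are therefore named only by their labels, and every sign of a difference between arms would turn if the labels were exchanged. For the labelled tissue, 22 homeologs of marginal zone mesoderm markers were read on control arrays. In the order of the stages their mean level was 9.36 to 9.48, 8.90 to 9.30 and 8.06 to 8.22. That of 16 endoderm marker homeologs was 10.57 to 10.89, 9.85 to 10.09 and 8.05 to 8.31. These levels alone do not identify the tissue.

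Most of the splicing probe sets were bright. Their means over the 18 arrays ran from 3.30 to 13.90 with a median of 10.62, against a median of 5.64 over all probe sets, and 110 of the 158 (69.6%) lay in the brightest 10% of the array. The 3 brightest were srsf2.L, an SR protein gene, with a mean of 13.90, hnrnpa1.S with 13.55 and srsf5.S with 13.46. At the other end, 12 members averaged under 6, the range in which a probe set is dim, among them a probe set of prpf38a.S at 3.30, a probe set of snrpf.S at 3.36 and a probe set of celf3.L at 3.95. A filter that asked for at least 6 on at least 3 arrays kept 151 of the 158 members, 95.6%, and 56.1% of all probe sets. Brightness depends on each probe's own sequence, so this order is of probe set signals and not of RNA amounts between genes.

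The first comparison, between the arms, addresses whether lowering RA changed these genes. No splicing or hnRNP probe set was called between the arms at any stage, where called means a Benjamini-Hochberg adjusted p under 0.05 over all 32475 probe sets in limma. The count was 0 of 158 at each stage, where 0.00308% of all probe sets were called at early gastrula, 0.0185% by mid-gastrula and 0.425% by early neurula. At an unadjusted p under 0.05 limma gave 0, 1 and 1 members, or 0%, 0.633% and 0.633%, against 1.52%, 2.28% and 5.62% of all probe sets. The lowest adjusted p of a member was 1, 1 and 0.754 in the order of the stages. Arrays of a stage that share a replicate number deviated together in the arms, and a limma fit that blocked them by stage and number also called 0 members, against 0.0585%, 0.148% and 3.94% of all probe sets, with 6, 6 and 13 members (3.80%, 3.80% and 8.23%) at an unadjusted p under 0.05 against 6.93%, 9.96% and 16.3% of all probe sets. A block by number shared by all stages called 0 members as well, against 0.00616%, 0.037% and 1.14%.

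The differences between arms were small as well as uncalled. RA-depleted minus control ran from -0.21 to 0.23 log2, from -0.19 to 0.21 and from -0.30 to 0.33 at the successive stages, with a median size of 0.04, 0.04 and 0.05. The 95% confidence interval of the difference lay within 0.5 log2 of 0 for 149, 147 and 147 of the 158 members. The widest bound was 0.71 and then 0.72, both for ptbp3.S, and for the early neurula 0.80, for celf2.L. These intervals came from the fit without a block, which leaves out the pairing of same-numbered arrays. With the block by stage and number 158, 158 and 155 members lay within 0.5, and the widest bounds were 0.44, 0.44 and 0.68. The 3 arrays of an arm lay apart from the 3 of the other for 7, 8 and 17 members (4.43%, 5.06% and 10.8%), where 5.10%, 5.82% and 9.50% of all probe sets did so. The median arm difference of each of the 9 roles described below lay between -0.04 and 0.02 at the earliest stage, between -0.06 and 0.06 at the next and between -0.10 and 0.06 at the last. Whether the arm difference itself changed between stages was tested as an interaction, which called 0 members from early gastrula to mid-gastrula and 0 from mid-gastrula to early neurula (limma, adjusted p, with 0% and 0.0585% of all probe sets called), and 0 members at an unadjusted p under 0.05, against 1.21% and 2.85% of all probe sets. The block by stage and number called 0 members in either interaction, against 0% and 0.782% of all probe sets, with 1 and 6 members at an unadjusted p under 0.05 against 6.29% and 11%. The block by number shared by all stages called 0 as well, against 0% and 0.163%.

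**Figure D1:**
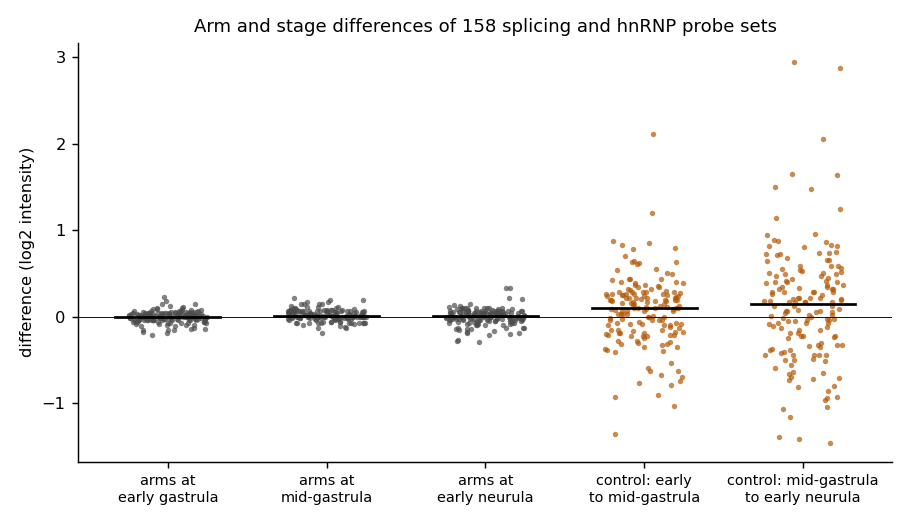
Log2 differences of the 158 splicing and hnRNP probe sets, RA-depleted minus control at each of the 3 stages and later minus earlier stage in explants labelled control. Each point is a probe set and each black line the median; the arm differences stay between -0.30 and 0.33, whereas the stage differences run from -1.46 to 2.95.

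The 3 largest arm differences at early neurula were in members whose arrays overlapped. For celf2.L, which encodes a CELF regulator, early neurula arrays read 7.48, 6.25 and 6.69 in control and 7.35, 6.95 and 7.11 in RA-depleted explants. The arms overlapped, and the difference of 0.33 log2 (SE 0.22) was 0.67 without control replicate 1 and 0.05 without control replicate 2. For celf3.S the same stage gave 4.48, 5.57 and 5.43 in control and 5.60, 5.47 and 5.39 in RA-depleted explants. A single low control array set that difference, which was 0.33 (SE 0.20) with it and -0.01 without control replicate 1. The hnRNP gene hnrnpk.S read 9.62, 9.30 and 9.55 in control and 8.90, 9.20 and 9.47 in RA-depleted explants at early neurula on the probe set Xl2.23903.1.S1_at. The arms overlapped here too, and the difference of -0.30 (SE 0.12, limma adjusted p = 0.754) was -0.15 without RA-depleted replicate 1 and -0.44 without RA-depleted replicate 3. Slightly smaller differences at this stage came with arrays that lay apart. For hnrnpdl.L, a gene for an hnRNP D-like protein, control arrays read 8.45, 8.38 and 8.23 and RA-depleted arrays 8.22, 8.03 and 7.96 on Xl2.2141.3.S1_at. For hnrnpa2b1.S they read 9.53, 9.53 and 9.52 against 9.27, 9.20 and 9.30 on Xl2.3664.1.S2_at. All RA-depleted arrays lay below all control arrays in both genes, by -0.28 (SE 0.14, limma adjusted p = 0.954, or 0.0837 with the block by stage and number, the lowest of any member) and by -0.27 (SE 0.14, adjusted p = 0.963 and 0.136), and neither was called.

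At the earlier stages the largest gaps were smaller still. At early gastrula the same probe set of hnrnpdl.L read 7.45, 7.53 and 7.01 in control and 7.68, 7.63 and 7.36 in RA-depleted explants, overlapping, with a difference of 0.23 (SE 0.14), opposite in sign to that at early neurula. The branch point factor sf3b1.S differed by -0.21 (SE 0.11) on the probe set Xl2.2599.1.S1_a_at with arrays that did not overlap, lower in RA-depleted explants in all 3 pairs, and was not called. Its other probe sets differed by -0.03, -0.03 and -0.01, with overlapping arrays. The difference of hnrnpu.L was -0.19 (SE 0.21) on Xl2.23438.1.S3_at, with overlapping arrays, and -0.08 and -0.04 on its other probe sets. At mid-gastrula srsf10.S read 7.03, 6.78 and 6.80 against 7.26, 6.88 and 7.09, again overlapping, a difference of 0.21 (SE 0.12). These were values of Xl2.42964.1.A1_at, and the other srsf10.S probe set differed by -0.02. The mid-gastrula difference of sf3b4.S on Xl2.44909.1.S1_x_at, -0.19 (SE 0.16), was 0.03 without RA-depleted replicate 2. Its other probe sets differed by -0.13 and -0.02. The third of that stage, prpf38a.S, differed by 0.19 (SE 0.09) on Xl2.54468.1.S1_at and by 0.15 and 0.06 on its other probe sets.

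A small difference in the same direction at every stage was looked for as the mean over the 3 stages, a contrast added after the data were seen. Without the block limma called 0 of 158 members and 0.0862% of all probe sets. With the block by stage and number it called 2 of 158 members, a share under the 2.25% of all probe sets. For prpf38a.S, whose product joins the tri-snRNP, the control arrays of the probe set Xl2.54468.1.S1_at read 9.37, 9.40 and 9.30, then 9.16, 8.86 and 9.01, then 9.52, 9.40 and 9.29 from stage to stage. The RA-depleted arrays of the same numbers read 9.58, 9.51 and 9.43, then 9.28, 9.11 and 9.20, then 9.60, 9.57 and 9.43, higher in 9 of 9 pairs. The mean difference was 0.16 log2, with an SE of 0.05 and adjusted p = 0.719 without the block and an SE of 0.03 and adjusted p = 0.015 with it (limma). The small U2AF subunit gene u2af1.S gave a mean difference of 0.14 on the probe set Xl2.42285.1.S1_a_at, also higher in 9 of 9 pairs, with adjusted p = 0.627 without the block and 0.0224 with it (limma). The other probe sets of both genes were not called under the block. Pair signs were as uniform in some members not called. A probe set of lsm12.L was higher in 9 of 9 pairs, and Xl2.23903.1.S1_at of hnrnpk.S in 0 of 9.

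The second comparison follows the explants from early gastrula to early neurula within an arm. Here splicing genes changed in both directions. Because array medians differed between stages, a probe set is said to have risen or fallen only when it was called in the same direction on 3 scalings, the deposited values, the values quantile normalized again over all 18 arrays, and the values with each array centred on the common median. The median of all probe sets from early gastrula to mid-gastrula was -0.19 on deposited values, -0.01 after quantile normalization and 0.20 after centring, and sizes below are read against it. In bulk RNA fewer cells of a type and less RNA per cell cannot be told apart. Gastrula explants were kept at 20 °C and early neurula explants at 14 °C. At the later step stage and culture temperature therefore cannot be told apart.

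From early gastrula to mid-gastrula in explants labelled control, 35 of the 158 members rose, 22.2% against 10.9% of all probe sets, and 8 fell, 5.06% against 16.5%. Among the 151 members past the dim filter the shares were 22.5% and 5.30%, beside 15.1% and 22.1% of all probe sets past it. That filter kept 56.1% of all probe sets and did not match them to the members in brightness. Between these stages array medians went from 5.85 to 5.91 down to 5.47 to 5.51. The 95th percentile went from 10.55 to 10.56 down to 10.43 to 10.46. The part of brightness in the share that rose was not tested. The split of calls depended on the scaling, with 50 higher and 28 lower on deposited values (11.2% and 38.2% of all probe sets), 51 and 23 after quantile normalization (18.8% and 22.2%), and 116 and 8 after centring (38.9% and 16.7%). The median member difference was 0.10, 0.08 and 0.49 on the same 3 scalings. From mid-gastrula to early neurula 45 members rose, 28.5% against 28.2% of all probe sets, and 40 fell, 25.3% against 25.8%. Those shares lay near the background, and among the members past the dim filter they were 27.2% and 25.8%, beside 31.6% and 35.8%. Deposited values gave 72 higher and 42 lower at this step (33.2% and 26.1% of all probe sets), quantile normalized values 45 and 58 (28.4% and 30%), and centred values 71 and 41 (33.3% and 25.9%).

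In control explants 4 members (2.53%) differed by more than 1 log2 from early gastrula to mid-gastrula, against 13.7% of all probe sets, and 15 (9.49%) from mid-gastrula to early neurula, against 21.3%. Over both steps 22 members rose at both steps, 4 fell at both steps, 13 rose and were then not called, 22 were not called and then rose, 36 were not called and then fell, and 3 fell and were then not called. A single member, esrp1.L, fell and then rose, and 57 of the 158 were called at neither step. The shares of all probe sets with these courses over both steps are not given here, so the counts only describe the members. Counting each gene by its brightest probe set, 24 of 95 genes rose (25.3%) and 4 fell (4.21%) at the earlier step, beside 11.1% and 18.3% of all 11303 genes counted the same way. At the later step 26 rose (27.4%) and 24 fell (25.3%), beside 26.8% and 31.3%.

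**Figure D2:**
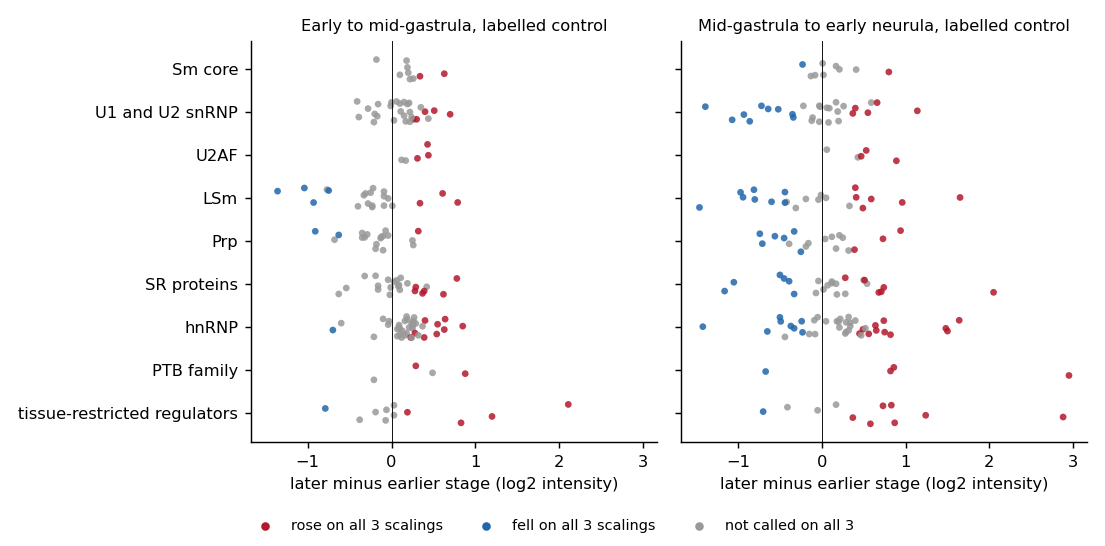
Log2 differences between stages in explants labelled control, early gastrula to mid-gastrula on the left and mid-gastrula to early neurula on the right, with each probe set a point in the row of its role. Red points rose and blue points fell on all 3 scalings and grey points did not pass; at the later step the RBFOX, CELF and ESRP regulators reach 2.88, PTB genes reach 2.95, and LSm genes run from -1.46 to 1.65.

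Markers of other cell types were followed as lists beside these values. All 6 homeologs of muscle markers rose from mid-gastrula to early neurula in each arm, and their mean level on control arrays was 4.45 to 4.66, then 5.25 to 5.77, then 9.14 to 10.14 over the stages. Cardiac actin, actc1.L, went from 3.84 through 9.06 to 13.50 as a control mean, while skeletal actin, acta1.S, read 4.24, 4.24 and 4.73. The mean level of 16 endoderm marker homeologs was 10.57 to 10.89, then 9.85 to 10.09, then 8.05 to 8.31. The 11 neural marker homeologs gave 5.79 to 6.02, 5.41 to 5.67 and 5.63 to 5.74, and the 17 epidermal ones 6.08 to 6.56, 5.34 to 5.46 and 5.22 to 6.13. The 8 homeologs of organizer and axial mesoderm markers gave 8.46 to 8.93, 7.14 to 7.46 and 6.33 to 7.25, with 1 that rose and 5 that fell at the earlier step and 2 and 3 at the later, and medians of -1.84 and -1.08. The part of these cell types in the results on splicing genes was not tested.

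The Sm proteins form the ring shared by most spliceosomal snRNPs. Of their 9 probe sets, 2 rose and 0 fell in control explants from early gastrula to mid-gastrula, and 1 rose and 1 fell from mid-gastrula to early neurula. Counts by role are read beside the shares of all probe sets in control explants. Those were 10.9% rising and 16.5% falling at the earlier step, and 28.2% and 25.8% at the later. No role was tested as a set. The main probe set of snrpb.L differed by 0.19 and 0.17 at the successive steps, that of snrpb.S by 0.10 and 0.02 and that of snrpd1.L by 0.26 and -0.13, none of them called on all 3 scalings. A second probe set of snrpb.L rose by 0.63 at the earlier step, and Xl2.55007.1.S1_x_at of snrpf.S rose by 0.34 and then by 0.80.

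Proteins particular to U1 and U2 snRNPs gave 28 probe sets, of which 5 rose and 0 fell at the earlier step and 5 rose and 9 fell at the later. Over all probe sets 10.9% rose and 16.5% fell at the earlier step, and 28.2% and 25.8% at the later. Of the 9 falls, 6 were in the genes for the pair of proteins that bind a hairpin of the U2 RNA. Of these, 4 were probe sets of snrpa1.S, and 2 of the 5 rises at that step were also probe sets of snrpa1.S. For snrpa1.S, which encodes protein A′ of the U2 snRNP, control arrays of the probe set Xl2.23786.1.S1_at read 11.89, 11.91 and 11.88 at early gastrula, then 11.48, 11.66 and 11.38 at mid-gastrula, then 10.23, 10.20 and 9.91 at early neurula. No early neurula array came near the mid-gastrula ones, and the fall was -1.39 log2 (SE 0.11, limma adjusted p = 3.95e-08). For its partner snrpb2.S, which encodes protein B″, the arrays read 11.96, 11.90 and 11.99, then 11.81, 11.74 and 11.78, then 10.81, 10.75 and 10.57. Stages again did not overlap after mid-gastrula, with a fall of -1.07 (SE 0.08, limma adjusted p = 2.03e-08), and -0.52 for the homeolog snrpb2.L. In RA-depleted explants the same step gave -1.33 for snrpa1.S and -1.01 for snrpb2.S.

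The SF3A and SF3B complexes, which hold the U2 snRNP at the branch point, moved less. Both steps brought a rise in sf3a1.L, by 0.26 and 0.37, and in sf3b5.S, by 0.51 and 0.55. The brightest probe set of sf3b1.S, the largest SF3B subunit, differed by 0.21 and 0.17 and did not pass on all scalings. At the later step sf3a2.S rose by 0.40, and sf3a3.S fell on both of its probe sets, by 0.64 and 0.34. U2AF, the dimer that recognizes the end of the intron, had 3 of 5 probe sets rise and 0 fall at each step. The shares of all probe sets were 10.9% and 16.5% at the earlier step and 28.2% and 25.8% at the later. Its large subunit gene u2af2.S differed by 0.12 and then rose by 0.89 (SE 0.10, limma adjusted p = 1.31e-06) on Xl2.4514.1.S1_at, and by 0.17 and then 0.53 on its other probe set. The brightest probe set of u2af1.S rose by 0.31 at the earlier step and differed by 0.43, not called on all scalings, at the later.

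Among the Prp proteins 1 of 18 probe sets rose and 2 fell at the earlier step in control explants, and 3 rose and 6 fell at the later. All probe sets gave 10.9% and 16.5%, then 28.2% and 25.8%. In RA-depleted explants 1 rose and 0 fell at the earlier step, and 3 rose and 8 fell at the later. There all probe sets gave 11.7% and 17.1%, then 27.9% and 26.1%. The core protein gene prpf8.S rose by 0.32 and then differed by 0.25, and prpf19.L, a ubiquitin ligase of the active spliceosome, differed by -0.10 and 0.21. Tri-snRNP genes were among those that fell: prpf6.L by 0.74 and 0.45 on a pair of its 3 probe sets at the later step, and prpf31.S by 0.91 at the earlier step on Xl2.48511.1.A1_x_at (SE 0.20, limma adjusted p = 0.00169). The other probe sets of prpf31.S did not pass at the earlier step and fell at the later. A gene for a U1-associated factor, prpf39.1.L, rose by 0.94 at the later step (SE 0.13, limma adjusted p = 1.17e-05). The probe sets of prpf38a.S passed at different steps and were not called in opposite directions at the same step. In control explants Xl2.1823.1.S1_s_at fell by 0.63 at the earlier step, a fall that did not pass in RA-depleted ones. At the later step Xl2.54468.1.S1_at and the dim Xl2.1823.2.S1_x_at rose by 0.39 and 0.73.

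The largest fall of any member in control explants was in the LSm group at each step, in a gene that is not a splicing factor. Of 21 probe sets, 3 rose and 4 fell at the earlier step, and 6 rose and 8 fell at the later. All probe sets of the array gave 10.9% and 16.5%, then 28.2% and 25.8%. For lsm14b.S, a gene for an RNA-binding protein of stored mRNA particles in Xenopus oocytes, control arrays read 9.42, 9.42 and 9.40 at early gastrula, then 7.76, 8.20 and 8.21 at mid-gastrula, then 6.48, 6.73 and 6.57 at early neurula. The 3 stages formed separate steps downward, -1.36 log2 (SE 0.13, limma adjusted p = 7.52e-07) and then -1.46 (SE 0.13, limma adjusted p = 1.86e-07). Its homeolog lsm14b.L read 9.16, 9.04 and 9.38, then 7.89, 8.11 and 8.44, then 7.42, 7.15 and 7.46, which was a fall of -1.04 followed by -0.80. In RA-depleted explants the falls were -1.35 and -1.5 for lsm14b.S and -1.16 and -0.73 for lsm14b.L. The related lsm14a.S fell at the later step only, by 0.81 (SE 0.10, limma adjusted p = 3.08e-06), and lsm14a.L by 0.44.

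Other LSm genes went both ways. The mRNA decay gene lsm1.S read 5.37, 5.64 and 5.57 in control explants at early gastrula, then 6.49, 6.49 and 5.97 at mid-gastrula, then 8.24, 8.0 and 7.66 at early neurula. It rose out of the dim range with no overlap between stages, by 0.79 (SE 0.16, limma adjusted p = 0.000616) and then by 1.65 (SE 0.16, limma adjusted p = 2.95e-07). Of the LSm proteins that ring the U6 RNA, lsm4.S rose by 0.61 and 0.96, whereas lsm6.S fell by 0.94 at the later step (SE 0.06, limma adjusted p = 4.19e-09). A probe set of lsm8.S, the member found only in the U6 ring, fell by 0.75 at the earlier step, and its other probe sets fell by 0.44 and 0.60 at the later.

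SR proteins bind exons and mostly favour their use. Of 23 probe sets, 6 rose and 0 fell at the earlier step and 6 rose and 6 fell at the later. Shares of all probe sets were 10.9% and 16.5%, then 28.2% and 25.8%. For srsf5a.L control arrays read 7.76, 7.59 and 7.83 at early gastrula, then 8.64, 8.26 and 8.13 at mid-gastrula, then 10.45, 10.43 and 10.30 at early neurula. Each stage lay above the earlier, with a rise of 0.62 (SE 0.14, limma adjusted p = 0.00211) and then of 2.05, or 4.14-fold (SE 0.14, limma adjusted p = 1.13e-08), and RA-depleted explants gave 0.70 and 1.89. Its homeolog srsf5a.S rose by 0.28 and 0.74. The related srsf5.S, among the brightest members, differed by -0.19 and 0.18 and did not pass.

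The genes for SRSF7 fell. The srsf7.S probe set Xl2.24806.1.S2_a_at read 13.13, 13.16 and 13.27 at early gastrula, then 13.08, 12.96 and 13.03 at mid-gastrula, then 11.77, 11.99 and 11.84 at early neurula in control explants. The early neurula arrays lay apart from all the others, -1.16 log2 from mid-gastrula (SE 0.07, limma adjusted p = 3.87e-09). The other srsf7.S probe set fell as well, by less (-0.39). For srsf7.L the fall was -1.05 in control explants and -1.33 in RA-depleted ones. By contrast srsf2.L lay between 13.81 and 13.97 on all 18 arrays and differed by 0.11 and 0.02, and the brightest probe set of srsf3.S by 0.09 and 0.07. A rise at the earlier step was followed by none at the later in srsf6.L, with 0.39 and -0.07, and in srsf6.S, with 0.37 and -0.04. At the later step srsf10.S rose by 0.71.

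Of the 39 hnRNP probe sets, 9 rose and 1 fell at the earlier step and 11 rose and 8 fell at the later. Over all probe sets the shares were 10.9% and 16.5%, then 28.2% and 25.8%. The gene hnrnpr.S read 8.10, 8.11 and 8.26 in control explants at early gastrula, then 9.17, 8.96 and 8.90 at mid-gastrula, then 10.48, 10.45 and 10.59 at early neurula. These values were from the probe set Xl2.22052.1.S1_at. Its stages did not overlap, and it rose by 0.85 (SE 0.10, limma adjusted p = 4.72e-06) and then by 1.5 (SE 0.10, limma adjusted p = 6.5e-09). Another, Xl2.22052.2.S1_x_at, also rose at each step in control explants. Its earlier rise was not called when single control arrays were left out, nor in RA-depleted explants. The last, Xl2.22052.3.A1_x_at, was called at neither step. For hnrnpm.L, a bright gene, the arrays read 10.82, 10.85 and 11.07, then 11.56, 11.51 and 11.59, then 12.35, 12.27 and 12.28, even steps of 0.64 and 0.75. The genes of several abundant nuclear hnRNPs differed less between stages: hnrnpa1.S differed by 0.19 and -0.09, the brightest probe set of hnrnpa1.L by 0.09 and 0.21, hnrnpc.S by 0.16 and 0.05 and hnrnpu.S by 0.24 and 0.18, none of which passed on all scalings. At the later step hnrnpc.L fell by 0.50. On Xl2.23438.1.S1_at hnrnpu.L fell by 0.24, a fall not called when single arrays were left out. Its probe set Xl2.23438.1.S2_at fell at that step as well, in both arms, and Xl2.23438.1.S3_at was not called.

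The hnRNP A2/B1 genes differed between homeologs and between probe sets. For hnrnpa2b1.S the probe set Xl2.3664.1.S2_at read 8.20, 8.28 and 8.27 at early gastrula, then 7.77, 8.23 and 8.13 at mid-gastrula, then 9.53, 9.53 and 9.52 at early neurula in control explants. It differed by -0.21 over gastrulation and then rose by 1.48 (SE 0.14, limma adjusted p = 2.23e-07), while the brighter Xl2.3664.1.S1_at differed by 0.26 and 0.40 without passing. The probe set Xl2.5872.1.S1_at of hnrnpa2b1.L read 9.87, 9.84 and 9.72, then 9.16, 9.23 and 8.95, then 8.45, 8.49 and 8.46. That homeolog went down at each step without overlap, by -0.70 and -0.65 (SE 0.07 for both, limma adjusted p = 2.13e-06 and 2.48e-06), and its brighter probe set fell by 0.49 at the later step.

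The PTB genes, which encode repressors of many tissue-specific exons, gave 4 probe sets. Of these 2 rose and 0 fell at the earlier step and 3 rose and 1 fell at the later. All probe sets gave 10.9% and 16.5%, then 28.2% and 25.8%. In control explants the largest difference upward was that of ptbp3.S. Its control arrays read 3.82, 3.43 and 3.71 at early gastrula, then 4.17, 4.02 and 4.26 at mid-gastrula, then 7.21, 6.55 and 7.52 at early neurula, and its RA-depleted arrays 3.73, 3.54 and 3.88, then 4.11, 3.92 and 4.16, then 7.30, 6.13 and 7.65. It was dim in the gastrula and above the dim range on every early neurula array of both arms. The rise was 2.95 log2 (SE 0.30, limma adjusted p = 7.25e-07) in control and 2.96 in RA-depleted explants, sizes that start from dim readings and so give no exact fold. The earlier difference, 0.49 (SE 0.30, adjusted p = 0.192 in limma), was called only with the replicate number as a block, at adjusted p = 0.0469. For ptbp1.S the rise was 0.29 and then 0.86, the earlier of which was not called without control early gastrula replicate 3 (0.25, adjusted p = 0.105 in limma) or without control mid-gastrula replicate 1 (0.17, adjusted p = 0.167).

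The RBFOX, CELF and ESRP regulators included celf3.S, with the largest measured rise of any member at the earlier step in each arm, and celf2.L, with the largest at the later step in RA-depleted explants. Of their 11 probe sets, 4 rose and 1 fell at the earlier step, and 7 rose and 1 fell at the later, in control explants. Shares of all probe sets were 10.9% and 16.5%, then 28.2% and 25.8%. With so few probe sets these counts only describe them. The gene celf2.L read 3.89, 3.98 and 4.12 in control explants at early gastrula, then 4.12, 3.77 and 3.87 at mid-gastrula, then 7.48, 6.25 and 6.69 at early neurula. It stayed in the dim range through gastrulation, with a difference of -0.07, and then rose by 2.88 log2 (SE 0.22, limma adjusted p = 2.71e-08), again from dim readings. RA-depleted explants gave a rise of 3.10 (SE 0.22, limma adjusted p = 1.16e-08). All 6 muscle marker homeologs rose over the same interval, by a median of 3.80 log2 in control and 3.93 in RA-depleted explants. Their part in the rises of celf2.L, ptbp3.S and rbfox2.S at that step was not tested. At the earlier step, where both copies of rbfox2 rose, 2 of the 6 muscle homeologs rose in each arm. The median difference of the 6 was then -0.03 in control and 0.05 in RA-depleted explants. As control means actc1.L went from 3.84 to 9.06 and ckm.L from 6.77 to 7.94, whereas the others stayed under 6 at both stages. The part of muscle markers at this step was not tested either.

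The rise of celf3.S came earlier. Its control arrays read 3.35, 3.53 and 3.50 at early gastrula, then 5.71, 5.48 and 5.52 at mid-gastrula, then 4.48, 5.57 and 5.43 at early neurula. It rose by 2.11 log2 (SE 0.20, limma adjusted p = 5.46e-07) between the gastrula stages but stayed in the dim range throughout, so that the size is no exact fold, and then differed by -0.41 (SE 0.20, adjusted p = 0.0887 in limma). In RA-depleted explants the steps were 2.25 and -0.18. Its homeolog celf3.L showed no such step, with differences of 0.03 (SE 0.12, adjusted p = 0.884 in limma) and then a rise of 0.58 on Xl2.986.1.S2_at. In mammals CELF3 is best known from the brain. Of the 11 neural marker homeologs 2 rose and 2 fell at the earlier step, and their part was not tested.

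The 2 homeologs of rbfox2 both rose in the gastrula. Control arrays of rbfox2.S read 5.95, 6.01 and 6.03 at early gastrula, then 7.23, 7.27 and 7.09 at mid-gastrula, then 7.93, 7.75 and 8.11 at early neurula. Its stages did not overlap, and it rose by 1.20 (SE 0.12, limma adjusted p = 1.02e-06) and then by 0.73 (SE 0.12, limma adjusted p = 8.44e-05). Those of rbfox2.L read 6.43, 6.55 and 6.13, then 7.45, 7.36 and 6.79, then 7.54, 7.41 and 7.17. The L copy rose by 0.83 (SE 0.19, limma adjusted p = 0.0023) and then differed by 0.17 with overlapping arrays, adjusted p = 0.47. In RA-depleted explants the steps were 1.30 and 0.94 for rbfox2.S and 1.15 and 0.06 for rbfox2.L.

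**Figure D3:**
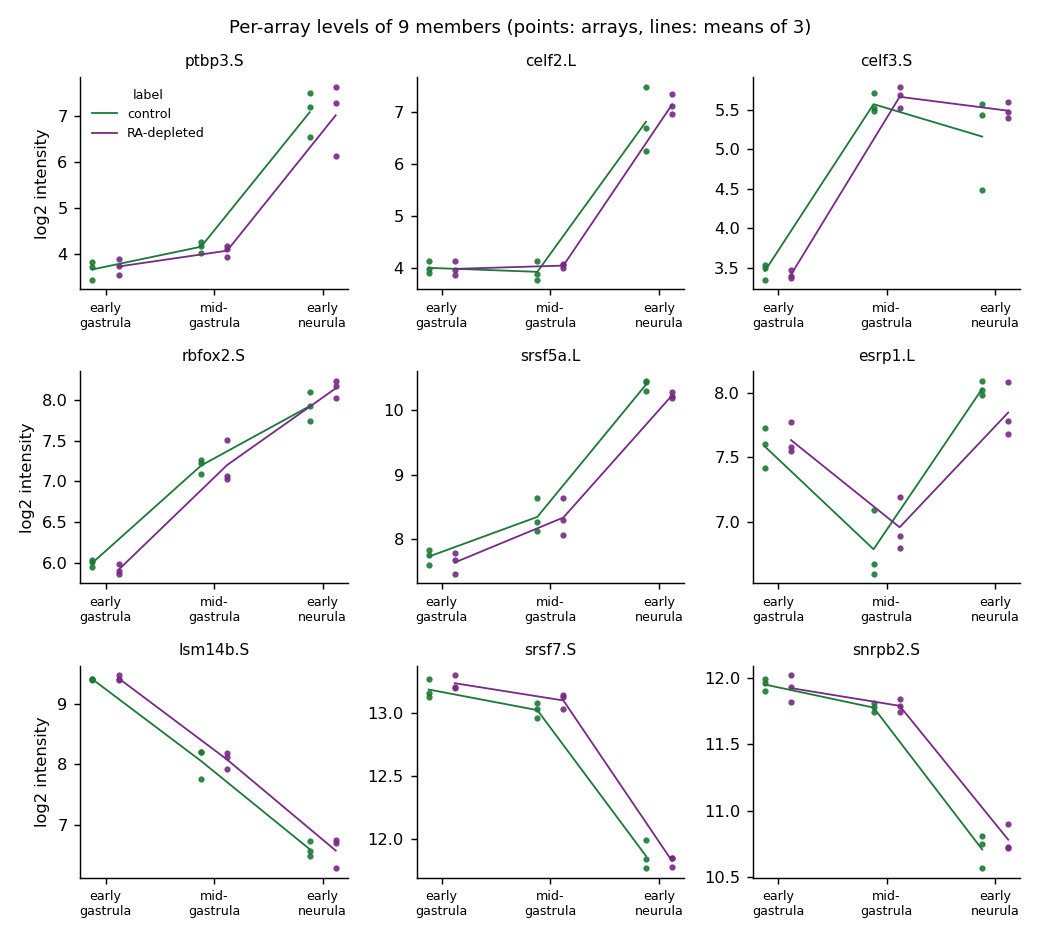
Log2 intensity on each of the 18 arrays for 9 members, by stage, with explants labelled control in green and RA-depleted in purple; each point is an array. Green and purple points lie in the same range at each stage, while ptbp3.S and celf2.L rise at early neurula, celf3.S at mid-gastrula and lsm14b.S falls at each step.

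The epithelial regulator esrp1.L was the member that fell and then rose in control explants. Its arrays read 7.42, 7.60 and 7.73 at early gastrula, then 6.60, 6.68 and 7.09 at mid-gastrula, then 8.02, 8.09 and 7.98 at early neurula. Mid-gastrula arrays were the lowest and early neurula arrays the highest, with no overlap, a fall of -0.79 (SE 0.14, limma adjusted p = 0.000284) and a rise of 1.24 (SE 0.14, limma adjusted p = 2.45e-06). In RA-depleted explants the difference of -0.68 at the earlier step was not called on the other scalings (-0.31 at adjusted p = 0.0912 and -0.30 at adjusted p = 0.086 in limma), and the later rise was 0.89. Of the 17 epidermal marker homeologs, 1 rose and 5 fell at the earlier step and 1 rose and 3 fell at the later, and their part was not tested. The celf1 genes rose at the later step, by 0.83 on the brightest probe set of celf1.L (SE 0.17, limma adjusted p = 0.000537) and by 0.87 on that of celf1.S (SE 0.07, limma adjusted p = 2.94e-08). The earlier rise of celf1.S, 0.19 (limma adjusted p = 0.0302), was not called with the block by stage and number, at adjusted p = 0.0567, or without single arrays (early gastrula replicates 1 and 3 and each mid-gastrula replicate, adjusted p from 0.0509 to 0.102).

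The time course was measured separately in the arm labelled RA-depleted, on arrays that share no sample with the control ones, although same-numbered arrays of a stage deviated together. There 37 members rose and 6 fell from early gastrula to mid-gastrula, 23.4% and 3.80% against 11.7% and 17.1% of all probe sets. From mid-gastrula to early neurula 44 rose and 42 fell, 27.8% and 26.6% against 27.9% and 26.1%. On deposited, quantile normalized and centred values 56, 54 and 115 members were higher at the earlier step, against 12.1%, 19.7% and 39.1% of all probe sets, and 31, 22 and 6 lower, against 38.1%, 22.9% and 17.4%. At the later step 70, 44 and 70 were higher, against 32.7%, 28% and 32.9%, and 42, 64 and 42 lower, against 26.4%, 30.1% and 26.1%. In both arms 32 members rose and 5 fell at the earlier step, and 42 rose and 39 fell at the later, with 0 called in opposite directions. Across the 158 probe sets, which are not independent replicates, Pearson's r between the stage differences of the arms was 0.986 for the earlier and 0.989 for the later step. The counts in both arms and r are not given here for all probe sets. They therefore show no agreement particular to the splicing genes. The widest gap between arms was 0.32 log2 at the earlier and 0.35 at the later step, and no gap was called by the interaction test given above.

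**Figure D4:**
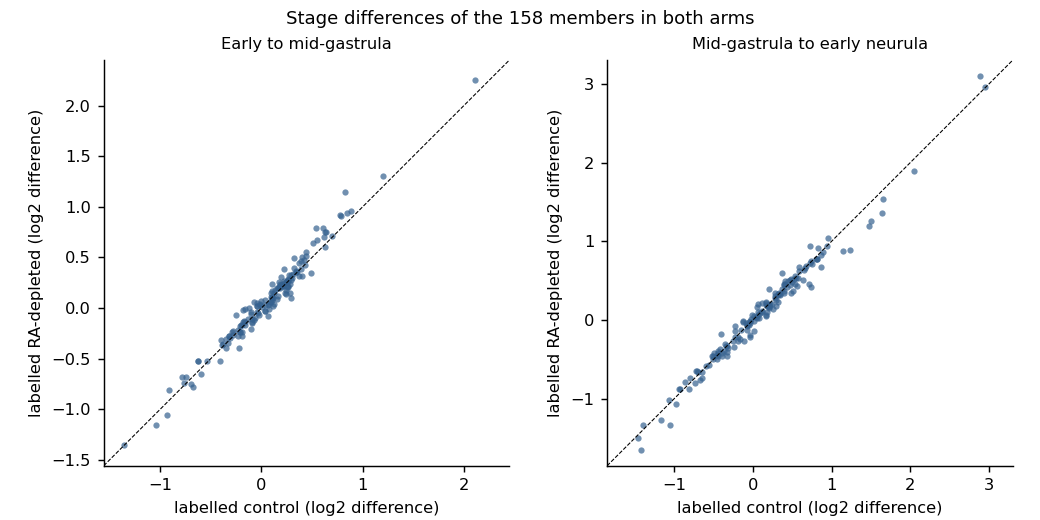
Log2 stage difference of each of the 158 probe sets in explants labelled control (horizontal) against that in explants labelled RA-depleted (vertical), for each step. The dashed line marks equal differences, and no point lies more than 0.35 from it in vertical distance.

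Several genes were read by probe sets that moved apart, so that the direction given for the gene depends on the probe set. The cause was not tested. From mid-gastrula to early neurula in control explants 6 of the 40 genes with several probe sets (15.0%) had at least 1 that rose and 1 that fell, against 218 of 2702 such genes on the whole array (8.07%). They were celf1.S, hnrnpk.S, lsm7.L, ptbp1.L, snrpa1.S and srsf1.L. At the earlier step the counts were 0 of 40 and 42 of 2702 (1.55%).

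The widest split was in hnrnpk.S, the poly(C)-binding hnRNP K. The probe set Xl2.23903.1.S1_at read 10.85, 10.89 and 11.07 in control explants at early gastrula, then 10.84, 10.91 and 10.99 at mid-gastrula, then 9.62, 9.30 and 9.55 at early neurula. The probe set Xl2.8131.1.S2_a_at read 5.69, 6.49 and 5.97, then 6.65, 6.75 and 6.37, then 8.21, 8.28 and 8.20. The former fell by -1.42 (SE 0.12, limma adjusted p = 1.42e-07) at the later step, and the latter rose by 1.64 (SE 0.21, limma adjusted p = 8.6e-06). Of the other probe sets of hnrnpk.S, Xl2.8131.1.S2_at rose by 0.63 and 0.82, and the brightest, Xl2.8131.2.S1_a_at, differed by 0.09 and 0.47 without passing on all scalings. The earlier rise of Xl2.8131.1.S2_a_at, 0.54, was not called without control early gastrula replicate 1 (0.36, adjusted p = 0.203 in limma) or 3 (0.50, 0.111), or without control mid-gastrula replicate 1 (0.51, 0.106) or 2 (0.46, 0.136).

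For ptbp1.L the probe set Xl2.42999.3.A1_a_at read 8.99, 9.09 and 8.85, then 9.92, 9.86 and 9.77, then 10.71, 10.60 and 10.70, and rose by 0.88 and 0.82 (SE 0.10 for both). On Xl2.42999.2.S1_a_at the same gene went from 8.73, 8.69 and 8.55 at mid-gastrula to 7.89, 8.04 and 8.02 at early neurula, a fall of -0.67 (SE 0.07, limma adjusted p = 1.59e-06). Neither set of arrays overlapped between those stages. For celf1.S the dimmer Xl2.12254.1.S1_at fell by 0.70 (SE 0.08, limma adjusted p = 4.05e-06) while Xl2.12254.2.S1_at rose by 0.87. For srsf1.L, the founding SR protein gene, Xl2.2144.1.S2_at rose by 0.68 while Xl2.39705.1.S1_s_at fell by 0.50 and Xl2.2144.1.S1_at fell by 0.45. For snrpa1.S 4 probe sets fell, by 0.72 to 1.39. The dim Xl2.23786.3.A1_at, at 4.62, 4.56 and 3.95 and then 5.41, 5.76 and 5.37, rose by 1.14. The remaining probe set, Xl2.23786.3.A1_x_at, rose as well, in both arms and at both steps. For lsm7.L the dim Xl2.53225.1.S1_at fell by 0.97 and Xl2.47383.1.S1_at rose by 0.41, the latter not being called without control early neurula replicate 2 (0.30, adjusted p = 0.0693 in limma).

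**Figure D5:**
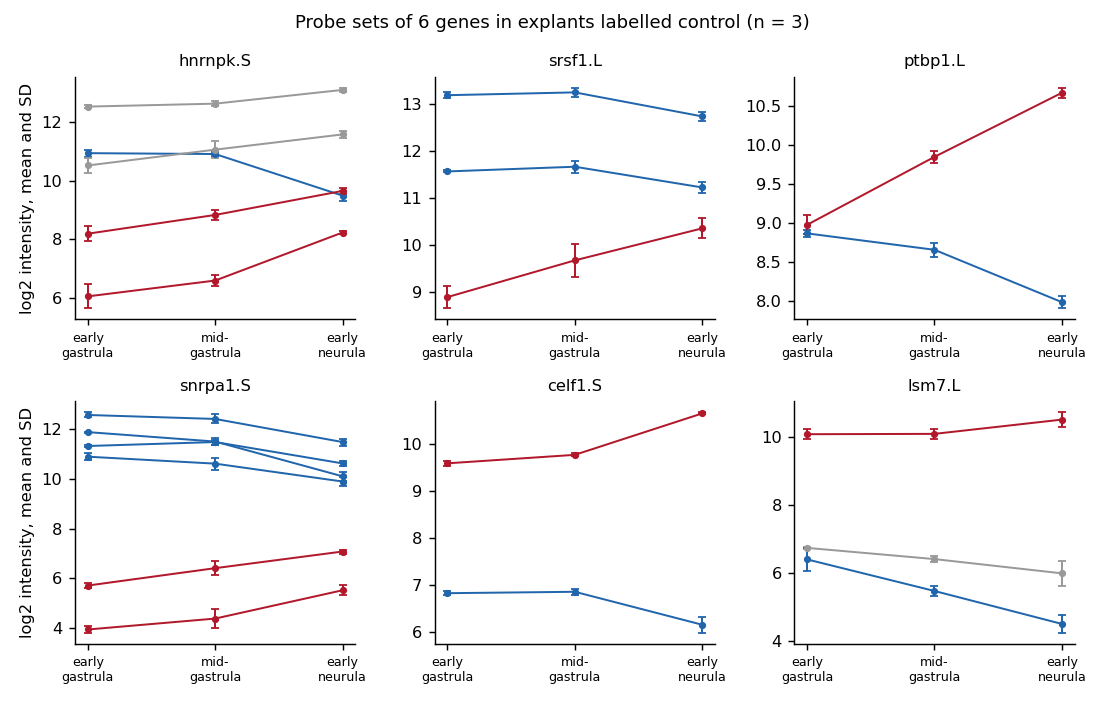
Mean log2 intensity by stage in explants labelled control for every probe set of the 6 genes whose probe sets moved apart; bars are the SD of 3 arrays. Red lines rose and blue lines fell from mid-gastrula to early neurula on all 3 scalings, and grey lines were not called; the hnrnpk.S lines separate by -1.42 and 1.64.

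Homeologs read by their brightest probe sets were not called in opposite directions. Of the 22 pairs, 18 had the same call at the earlier step and 12 at the later, and 0 had opposite calls at either. Pairs with neither copy called count as the same. Both copies rose or fell in lsm14b, srsf5a, srsf6, ptbp1 and rbfox2 at the earlier step. At the later step they did so in snrpb2, lsm14a, lsm14b, srsf5a, srsf7, ptbp1 and celf1. On a dimmer probe set hnrnpa2b1.S rose at the later step, while hnrnpa2b1.L fell. The share over all homeolog pairs of the array is not given here.

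Genes of the pathway outside the symbol pattern were taken from a list of 86 names, of which 66 were found as 87 homeologs. Between the arms 0 of the 87 were called at any stage (limma), where 0.00308%, 0.0185% and 0.425% of all probe sets were called. Each was read by its brightest probe set. In control explants 19 rose (21.8%) and 3 fell (3.45%) from early gastrula to mid-gastrula, beside 11.1% and 18.3% of all genes. From mid-gastrula to early neurula 20 rose (23.0%) and 18 fell (20.7%), both under the 26.8% and 31.3% of all genes. In RA-depleted explants 21 rose (24.1%) and 4 fell (4.6%) at the earlier step, beside 11.9% and 19.1% of all genes. At the later step 18 rose (20.7%) and 17 fell (19.5%) there, beside 26.9% and 31.4%. The falls included smn1.S, the survival of motor neuron gene whose product loads Sm rings onto snRNAs, by 1.38 (SE 0.14) and 2.27 (SE 0.14) in control explants. Of other members of the same assembly complex, gemin2.S fell by 1.06 and 0.87 and gemin8.S by 0.79 at the later step. Results for the remaining listed genes of that complex are not given here, so these falls do not describe it as a whole. Rises included nova2.L, a neuronal splicing regulator in mammals, by 0.85 and 1.43, tardbp.L, the gene for the RNA-binding protein TDP-43, by 1.36 at the later step, and clk2.S, a kinase that phosphorylates SR proteins, by 0.81 at the later step.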

How the data were processed

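The deposited table held log2 probe set intensities of 18 arrays, made by the authors with RMA (affy package, as the submitters' processing notes give it); versions and the arrays normalized together are not given in the sources used here. Of 32635 probe sets, 160 controls were left out. Of the 32475 tested, 15495 had 1 gene symbol in the array annotation, 279 several and 16701 none. All 158 members had an Entrez identifier in the RefSeq gene table of Xenopus_laevis_v10.1, with the same symbol in 158 cases.

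Groups followed the labels. The functions lmFit, contrasts.fit and eBayes of limma 3.58.1, run under R 4.3.3, fitted a mean per group over the 18 arrays on the deposited log2 values, with Benjamini-Hochberg adjustment over the 32475 probe sets in each contrast and a threshold of 0.05. SE is limma's. The p-values measure the spread between 3 arrays per group, a number that limits the precision. Python 3.11.15 with matplotlib 3.10.9 drew the figures. Alternatives were the 3 scalings, a filter on dim probe sets, the replicate block, leaving out each array, trend and robust fits, array weights, the compared arrays alone, and leaving out the 45 members that may match several transcripts. The fit without a block was tested on simulated data with independent arrays. That test covered the arm contrast at early neurula and the control contrast from early gastrula to mid-gastrula. The blocks, the scalings and the interactions were not tested on simulated data.

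The replicate numbers pair the arms within a stage. After group means were removed, same-numbered arrays of a stage correlated between the arms at r of 0.64 to 0.84, and other numbers at -0.48 to -0.11.

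The members, role lists, marker lists and pathway list were chosen with earlier results of these data known. The text names the 3 largest arm differences per stage, up to 10 members per direction and time contrast called on all 3 scalings, a panel of 32 genes whatever their result (26 of them measured, as 37 homeologs), the 3 brightest and 3 dimmest members, and homeologs with opposite calls. The panel genes snrpe, ptbp2, rbfox1, celf4, celf5 and esrp2 were not found under those symbols. No sequence is given, since no sequence table was used here.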

Additional observations from a re-analysis of the deposited data

How the results depend on the processing

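The counts of 0 members called between the arms and in the interactions stayed at 0 with each array left out, on each scaling and with either block. With the replicate number as a block shared by all stages, members called higher and lower were 65 and 35 in control explants from early gastrula to mid-gastrula, 77 and 49 from mid-gastrula to early neurula, and 67 and 35, then 77 and 49, in RA-depleted ones. With the replicate block by stage they were 49 and 25, 72 and 42, 56 and 28, and 68 and 43, and it called 2 members for the mean over stages. It took 3 calls of the 220 named values, on deposited values, in celf1.S, hnrnpc.S and a probe set of hnrnpa1.L. Leaving out 1 array gave 35 to 48 higher and 22 to 27 lower in control explants at the earlier step and 62 to 67 and 37 to 41 at the later, against 42 to 53 and 26 to 29, then 62 to 65 and 39 to 43, in RA-depleted explants. For calls between stages, the shares of all probe sets with either block or with an array left out are not given here. Those counts therefore only describe the members.

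Scaling moved more. After centring, 116 were higher and 8 lower in control and 115 and 6 in RA-depleted explants at the earlier step. After quantile normalization 45 were higher in control, and 44 higher and 64 lower in RA-depleted explants, at the later step. Without probe sets that may match several transcripts, 18 in control and 19 in RA-depleted explants were lower at the earlier step, with no share of all probe sets given for that setting. Some small differences turned sign. Quantile normalization at the later step gave, in control and RA-depleted explants, -0.19 and -0.17 for snrpb.L, -0.28 and -0.27 for snrpb.S, -0.17 and -0.17 for sf3b1.S, -0.19 and -0.24 for srsf3.S, -0.05 and -0.02 for srsf5.S, -0.03 and -0.09 for hnrnpa1.L, -0.19 and -0.21 for hnrnpc.S, -0.21 and -0.27 for hnrnpu.S, and -0.01 for hnrnpa2b1.S in RA-depleted explants. Centring at the earlier step gave 0.20 and 0.14 for srsf5.S, 0.28 and 0.17 for hnrnpc.L, 0.29 and 0.34 for prpf19.L and 0.35 for celf3.L in RA-depleted explants. The cause of these reversals was not tested. Of the probe sets that rose or fell on all 3 scalings, 34 of 43 and 79 of 85 in control and 37 of 43 and 78 of 86 in RA-depleted explants were still called with every single array left out.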
